A study of Mus musculus with 4 samples.

Results

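The subunits of the NMDA receptor and 4 proteins that anchor or relay its signal were followed in the brains of Bcas1 knockout and wild-type mice. The members were 10 genes, and every probe set whose symbol in the platform annotation was one of them was kept. That gave 22 of the 45037 probe sets tested on the array, for 9 of the 10 genes. No probe set carried the symbol Grin1 there, so the obligatory subunit was not analysed here. Grin2b had 4 probe sets, Camk2a had 6, Grin3a and Dlg4 had 3 each, Grin2d had 2, and Grin2a, Grin2c, Shank3 and Nrgn had 1 each.

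The tested mice were 2 Bcas1 knockouts (BCAS1 -/-, KO), and they were compared with 2 wild-type mice (+/+, WT). All 4 were male C57BL/6 animals aged 8 to 9 weeks from matings of heterozygous parents, and none received a treatment that the labels name. Total RNA from the brain of each mouse, which the sample descriptions call cerebrum, went on an Affymetrix array of its own. The spread within a group thus holds that between mice and that of tissue and array preparation, which cannot be told apart. The sources used here do not give how the allele was disrupted or whether any mice were littermates. Levels are log2 values from RMA, which removes background signal, equalises the distributions of the arrays and combines the probes of a set into 1 value.

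NMDA receptors are glutamate-gated cation channels that open only when glutamate and a co-agonist are bound and the membrane is already depolarised, and they let calcium into the postsynaptic spine. Each channel pairs GluN1, encoded by Grin1, with GluN2 subunits, encoded by Grin2a to Grin2d, or with GluN3 subunits such as that of Grin3a. In the forebrain GluN2B predominates early in life and GluN2A joins it as synapses mature, while GluN2C is known from cerebellar granule cells and GluN2D from the diencephalon, brainstem and interneurons. Below the membrane, PSD-95 (Dlg4) holds the receptor by the tail of its GluN2 subunits and Shank3 ties such complexes to deeper scaffold. Calcium that enters binds calmodulin, which activates the kinase CaMKII (Camk2a) and is buffered when calcium is low by neurogranin (Nrgn).

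The arrays were alike in overall signal, with medians of 6.49 to 6.51 and correlations between arrays of 0.996 to 0.998 across probe sets, which are not independent replicates. The brightest Bcas1 probe set measured 11.05 and 10.75 in KO mice, against 12.17 and 12.21 in WT mice, and the 2 dimmer ones ran the other way, 0.77 and 0.64 higher in KO. The sources used here do not place these probe sets relative to the disruption, so they are no firm check of the labels. Transcripts of nasal mucosa were high in the second KO array, where Obp1a, an odorant-binding protein, measured 8.92, against 3.46 in the first KO array and 3.41 and 4.15 in WT. The mean level of 10 nasal genes was 4.90 and 6.83 in KO, against 4.89 and 5.04 in WT, and each member's difference is therefore also given without that array. Pituitary genes had a mean level of 5.70 and 5.90 in KO, against 5.64 and 5.71 in WT, with 0 of 9 called. Gh, growth hormone, measured 6.88 and 7.53 in KO, against 6.44 and 6.55 in WT. Although the descriptions name the cerebrum, cerebellar genes were bright in every mouse. Gabra6, a GABA-A subunit of cerebellar granule cells, measured 11.57 and 11.63 in KO, against 11.73 and 11.78 in WT, above 97.3% of all probe sets.

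No member probe set passed the test between genotypes. KO was set against WT with limma across all probe sets, and the threshold was an adjusted p of 0.05 after Benjamini-Hochberg adjustment over the whole table. At that threshold 0 of 22 member probe sets were higher and 0 were lower in KO, where 0.00444% of all probe sets were called, 2 of them lower and 0 higher. All 22 members had an adjusted p of 1. At an unadjusted p under 0.05 the count was again 0 of 22, against 3.42% of all probe sets, and the smallest unadjusted limma p was 0.20, for Grin2a. The differences ran from -0.18 to 0.24 with a median of -0.0025, 10 above 0, 11 below it and 1 at 0, while the median over all probe sets was 0. Without the second KO array, which held the nasal transcripts, the median was 0.01 and the differences ran from -0.165 to 0.32. A single KO array is then left, so only the differences are given. In bulk brain RNA, fewer cells of a type and less RNA per cell cannot be told apart. An exact permutation test of 2 mice against 2 cannot give a two-sided p below 0.333, so single values carry the limma intervals instead.

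The members moved about as much as the rest of the array. The median size of a difference, sign aside, was 0.06 for the members and 0.065 for all probe sets. The range over the 4 mice had a median of 0.20 for the members and 0.21 for all. Over all probe sets above the median level, where 14 of the 22 members lay, these medians were smaller, 0.05 and 0.16. KO and WT did not overlap for 2 probe sets higher in KO, which were Nrgn and 1 of Grin3a, against 13.9% of all probe sets in that direction. They did not overlap for 2 probe sets lower in KO, both of Camk2a, against 13.2% of all. The 4 of 22 together stood against 27.1% of all probe sets.

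**Figure D1:**
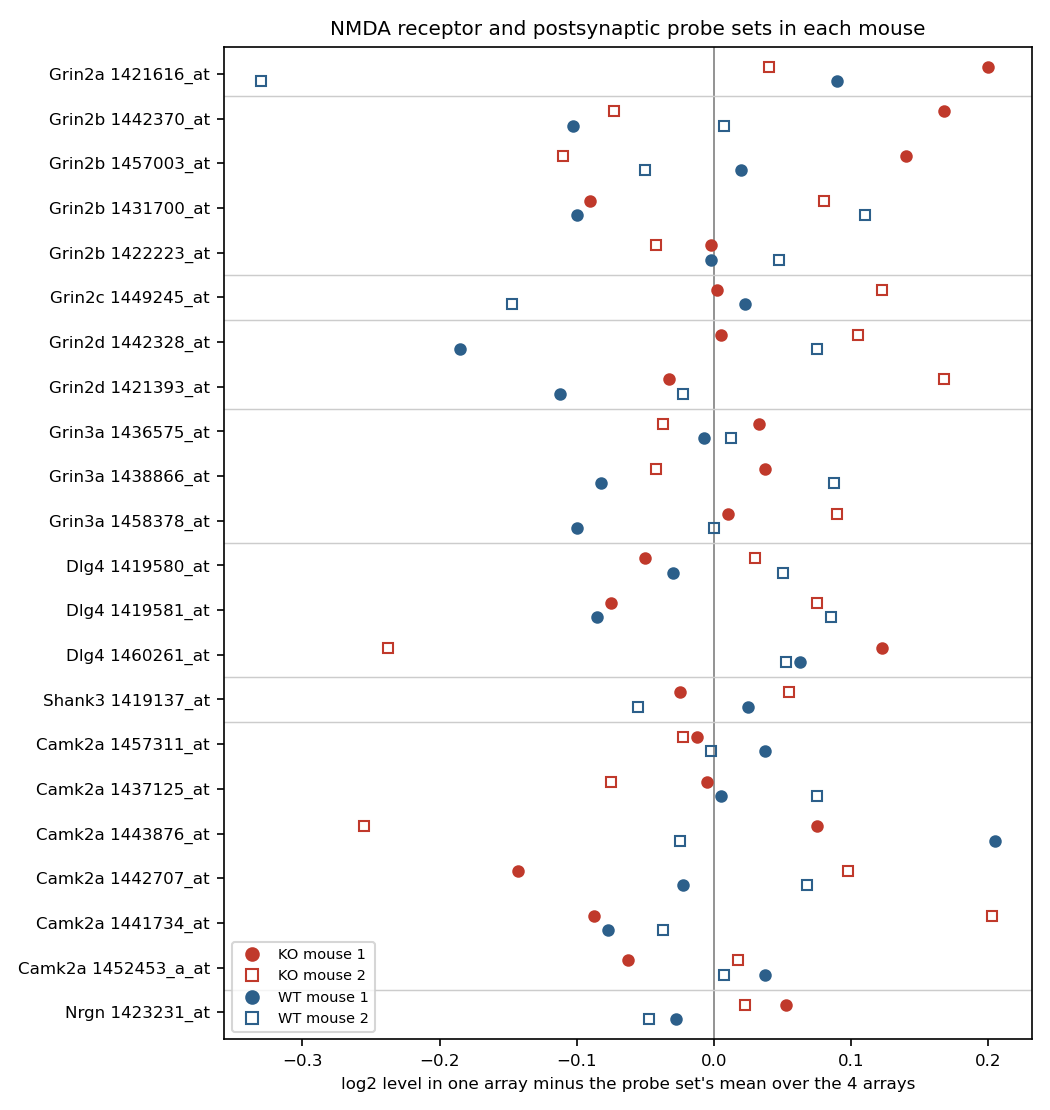
Each row is a probe set, and each point is its log2 level in 1 mouse minus its mean over the 4 arrays (x axis), with KO in red above WT in blue, filled circles for mouse 1 and open squares for mouse 2. KO and WT points overlap or touch in 18 of the 22 rows, and Grin2a, the dimmest gene, has the widest spread.

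Among the receptor subunits, Grin2a had the largest difference of any member and also the dimmest signal. Its only probe set, 1421616_at, measured 5.03 and 4.87 in KO mice, against 4.92 and 4.50 in WT mice. The first WT mouse lay between both KO mice, so the groups overlapped and only the second WT mouse was low. KO averaged 4.95 ± 0.11 and WT 4.71 ± 0.30 (SD, n = 2 each), a difference of 0.24 with a 95% interval of -0.18 to 0.66. The level was above that of only 24.2% of all probe sets, and no detection calls were used, so a change in GluN2A RNA could be compressed at this signal. Without the second WT array the difference was 0.03, without the first it was 0.45, and without the second KO array it was 0.32.

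Grin2b, the GluN2 subunit of early and extrasynaptic receptors, was read by 4 probe sets, 2 bright and 2 below the median level. The brightest, 1442370_at, measured 10.30 and 10.06 in KO, against 10.03 and 10.14 in WT. The second brightest, 1457003_at, measured 9.81 and 9.56 in KO, against 9.69 and 9.62 in WT. On both, the first KO mouse was the highest of the 4 and the second KO mouse was near or below the lower WT mouse. The KO mice thus lay further apart from each other than the genotype means did. Their differences were 0.095 (95% interval -0.19 to 0.38) and 0.03 (95% interval -0.25 to 0.31), which allow at most a 1.30-fold higher and a 1.19-fold lower level in KO. The dim sets 1431700_at and 1422223_at differed by -0.01 and -0.045, and 1431700_at measured 6.10 and 6.27 in KO, against 6.09 and 6.30 in WT. Without the first KO array both bright sets had negative differences, -0.025 and -0.095, and without the second the differences were 0.215 and 0.155. The dim sets were at -0.095 and -0.025 without the second KO array.

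The Grin2a signal was also set against the Grin2b signal within each array, because a log2 difference between probe sets has no absolute meaning but can be set against the same difference in another mouse. Grin2a minus Grin2b, on the brightest set of each, was -5.27 and -5.19 in KO, against -5.11 and -5.64 in WT. Both KO values lay between the WT values. The dim Grin2a set, whose change may be compressed, limits this comparison as it does the Grin2a level itself. The KO mean of -5.23 ± 0.057 was 0.145 above the WT mean of -5.38 ± 0.37 (SD, n = 2 each), with an exact permutation p of 1 (two-sided, smallest possible 0.333). Without the second WT array the difference changed sign, to -0.12.

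Grin2c and Grin2d, the subunits of slower or less magnesium-sensitive receptors, were read by 3 probe sets, all with positive differences. Grin2c measured 8.65 and 8.77 in KO, against 8.67 and 8.50 in WT, a difference of 0.125 (95% interval -0.13 to 0.38). The first KO mouse lay between the WT mice. Grin2d on 1442328_at measured 7.34 and 7.44 in KO, against 7.15 and 7.41 in WT, and on 1421393_at it measured 6.35 and 6.55 in KO, against 6.27 and 6.36 in WT. Each set had the first WT mouse lowest and the second KO mouse highest, and the groups overlapped on both. The Grin2d differences were 0.11 (95% interval -0.19 to 0.41) and 0.135 (95% interval -0.12 to 0.39). Without the first WT array the brighter Grin2d set differed by -0.02 and without the second by 0.24, and without the second KO array it differed by 0.06. The dimmer set ranged from 0.035 without the second KO array to 0.235 without the first. Grin2c ranged from 0.04 without the second WT array to 0.21 without the first, and was at 0.065 without the second KO array. Markers of the cells and regions that use these subunits did not pass the test either, each gene read by its brightest probe set. Cerebellar genes had 0 of 12 called and a median difference of 0, where 0.00550% of all 18193 genes were called. Of the 12, 2 were higher and 3 lower without overlap, against 15.5% and 12.8% of all genes. Their mean level was 10.16 and 10.17 in KO, against 10.17 and 10.16 in WT. Barhl1, read by a dim set, measured 5.50 and 5.53 in KO, against 5.01 and 5.23 in WT. Its difference was the most positive, 0.395 (95% interval 0.14 to 0.65, unadjusted limma p 0.012), and it was not called after adjustment. The most negative difference, -0.155, was that of both Zic1 and Gabra6. Thalamus and brainstem genes had 0 of 10 called and a median of -0.0075, with 0 higher and 4 lower without overlap. Their most negative difference was that of Tnnt1, a slow troponin, at -0.285 (SE 0.13), and the part of these regions in the Grin2d values was not tested. Interneuron genes had 0 of 10 called and a median of -0.005, at a mean level of 9.82 and 9.92 in KO, against 9.88 and 9.89 in WT. Pvalb, the calcium buffer of fast-spiking interneurons, had the most negative difference among them, -0.155 (SE 0.079).

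Grin3a encodes a GluN3 subunit that lowers calcium flow and lets glycine gate the channel. Its bright sets did not separate the genotypes. On 1436575_at it measured 8.21 and 8.14 in KO, against 8.17 and 8.19 in WT, and on 1438866_at 8.10 and 8.02 in KO, against 7.98 and 8.15 in WT. Both differed by -0.005, with 95% intervals of -0.19 to 0.18 and -0.24 to 0.23, and the sign was positive once the arrays were median-centred. The remaining set, 1458378_at, is dimmer and measured 6.29 and 6.37 in KO, against 6.18 and 6.28 in WT. Its groups did not overlap, by a gap of 0.01, and it differed by 0.10 (95% interval -0.11 to 0.31). Without the second KO array the 3 sets differed by 0.03, 0.035 and 0.06, in the order given.

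**Figure D2:**
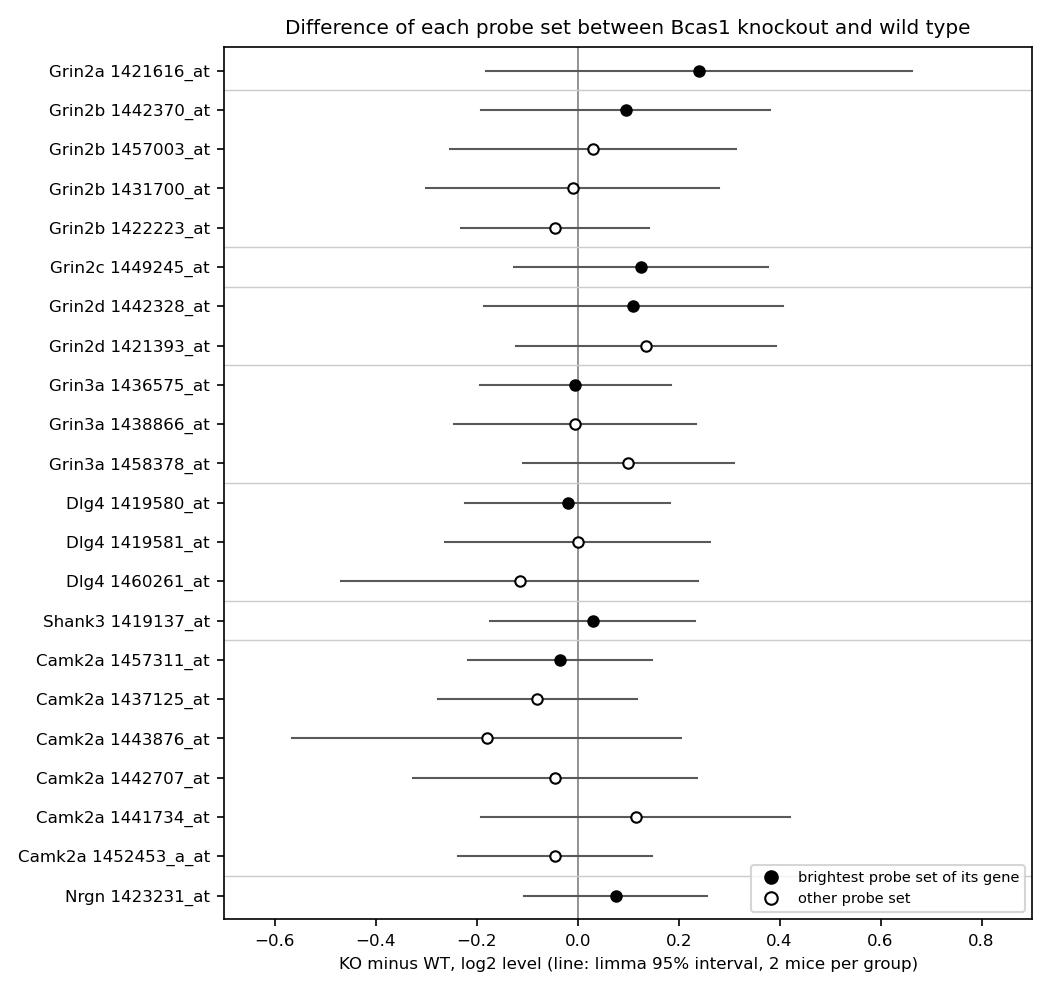
KO minus WT difference in log2 level (x axis) of each member probe set, with its limma 95% interval as a line, filled points for the brightest set of a gene and open points for the others, n = 2 mice per group. Every interval includes 0, from the narrowest at Nrgn (0.18 either side) to the widest at Grin2a (0.42 either side).

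Both scaffolds had nearly equal levels in KO and WT. Dlg4 on 1419580_at measured 10.77 and 10.85 in KO, against 10.79 and 10.87 in WT, and on 1419581_at 9.93 and 10.08 in KO, against 9.92 and 10.09 in WT. The mice of 1 genotype were about as far apart as those of the other, and the differences were -0.02 (95% interval -0.22 to 0.18) and 0 (95% interval -0.26 to 0.26). The bounds allow no more than a 1.20-fold change in either direction for PSD-95 RNA on these sets. The dimmest set, 1460261_at, measured 5.66 and 5.30 in KO, against 5.60 and 5.59 in WT, and its difference of -0.115 came from the second KO array, since it was 0.065 without it. The brighter sets were at -0.06 and -0.075 without that array. All 3 Dlg4 sets carry the same sequence record in the annotation, so they are not independent readings. Shank3 measured 8.94 and 9.02 in KO, against 8.99 and 8.91 in WT, a difference of 0.03 (95% interval -0.17 to 0.23), and it was at -0.01 without the second KO array.

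Camk2a, the alpha subunit of CaMKII and one of the most abundant messages of forebrain excitatory neurons, had negative differences on 5 of its 6 probe sets and passed the test on none. The brightest, 1457311_at, is above 99.7% of all probe sets and measured 13.27 and 13.26 in KO, against 13.32 and 13.28 in WT. The groups did not overlap, but the gap between them was 0.01, and the difference was -0.035 (95% interval -0.22 to 0.15). The second, 1437125_at, measured 11.26 and 11.19 in KO, against 11.27 and 11.34 in WT, also without overlap, with a difference of -0.08 (95% interval -0.28 to 0.12). The intervals allow at most a 1.16-fold and a 1.21-fold lower level in KO on these sets. Without the second KO array the differences were -0.03 and -0.045.

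The other Camk2a sets disagreed with each other. The most negative difference of any member was that of 1443876_at, which measured 8.54 and 8.21 in KO, against 8.67 and 8.44 in WT, a difference of -0.18 (95% interval -0.57 to 0.21) with overlapping groups. It was -0.015 without the second KO array and -0.345 without the first. In contrast 1441734_at measured 6.01 and 6.30 in KO, against 6.02 and 6.06 in WT, a difference of 0.115 that was -0.03 without the second KO array. That array held the highest value of the one set and the lowest of the other. The sets 1442707_at and 1452453_a_at each differed by -0.045, and 1442707_at differed by 0.075 without the first KO array. Without the second they differed by -0.165 and -0.085. The annotation lists all 6 sets with GenBank records other than RefSeq messenger RNAs, and the sources used here do not give which part of the transcript each reads.

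Genes of forebrain excitatory neurons, the cells in which Camk2a is abundant, did not pass the test, and their part in the Camk2a values was not tested. Of 10 measured, 7 had negative differences and the median was -0.055, 5 were lower and 2 higher without overlap, and 0 were called. Over all genes 12.8% were lower and 15.5% higher without overlap. Their mean level was 9.46 and 9.33 in KO, against 9.44 and 9.44 in WT. Tbr1, a deep-layer transcription factor, measured 9.12 and 8.43 in KO, against 8.80 and 8.87 in WT. Its KO mice lay the furthest apart of the list, while its difference was -0.06, near the list median. Rorb, a layer 4 transcription factor, had the most negative difference, -0.22 (SE 0.098), and Lamp5, a membrane protein of cortical neurons, the most positive, 0.115 (SE 0.083). General neuron genes had a median of -0.015 with 0 of 10 called, and Tubb3, a neuronal tubulin, was at -0.15 (SE 0.095).

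Nrgn was the member with the tightest replicates relative to its difference. It measured 11.27 and 11.24 in KO, against 11.19 and 11.17 in WT, and both KO mice lay above both WT mice. KO averaged 11.26 ± 0.021 and WT 11.18 ± 0.014 (SD, n = 2 each), and the difference of 0.075 had a 95% interval of -0.11 to 0.26 and an unadjusted limma p of 0.33. The interval is wider than the gap of 0.05 between the nearest KO and WT mice. Leaving out any array kept the difference between 0.06 and 0.09, and it was 0.09 without the second KO array. Nrgn and Camk2a, both abundant in the same forebrain spines, thus had differences of opposite sign on their brightest sets. Whether those differences differ from each other was not tested.

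**Figure D3:**
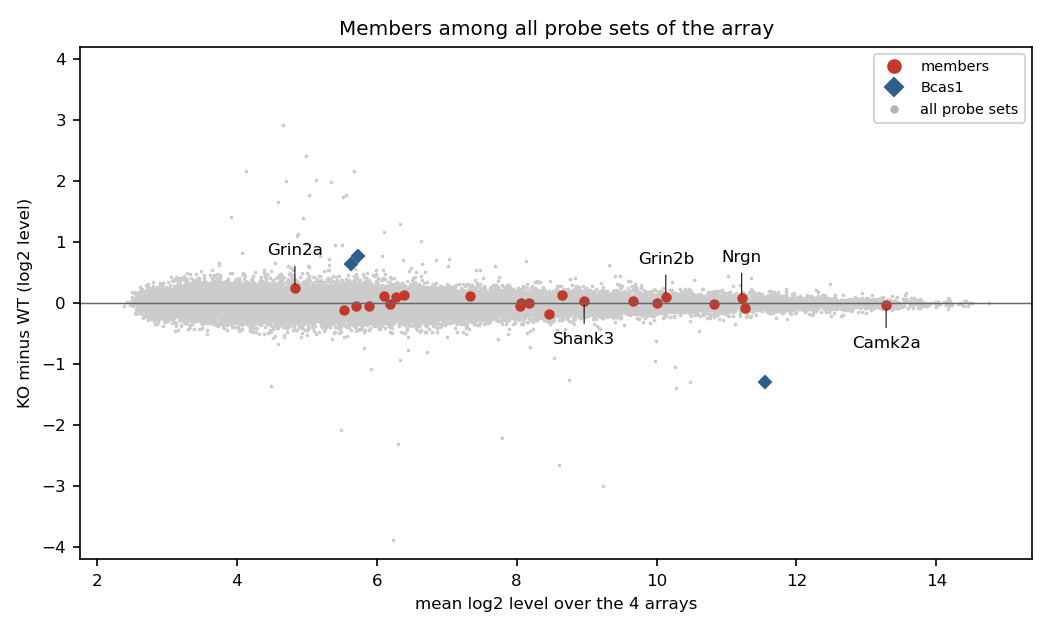
Mean log2 level over the 4 arrays (x axis) against KO minus WT (y axis, log2) for all probe sets in grey, with the 22 members in red and the 3 Bcas1 probe sets as blue diamonds. The members lie in the band around 0 at every level, between -0.18 and 0.24, whereas the brightest Bcas1 set lies at -1.29.

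Other genes of the postsynaptic density did not pass the test either. The lists were drawn up from general knowledge but with earlier results of these data known, and each gene was read by its brightest probe set. Of 24 scaffold and adhesion genes 20 were measured, 0 were called in either direction, and the median difference was -0.005, while the median over all 18193 genes was 0.005. In this list 0 genes were higher and 3 lower without overlap, where 15.5% and 12.8% of all genes were. Cnksr2, a scaffold of Ras signalling at synapses, measured 9.17 and 8.83 in KO, against 9.31 and 9.22 in WT, a difference of -0.265 (SE 0.13). Shank1, a relative of Shank3 read by a dim set, was at the other end with 4.81 and 5.38 in KO, against 5.09 and 4.71 in WT, a difference of 0.195 (SE 0.23) with overlapping groups.

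Genes that act on calcium and calmodulin beside Camk2a and Nrgn had a median of -0.005 over the 16 measured of 20. Of these 0 were called, 1 was higher and 2 were lower without overlap, against 15.5% and 12.8% of all genes. Camk4, a nuclear calmodulin-dependent kinase, measured 11.71 and 11.64 in KO, against 11.86 and 11.76 in WT, a difference of -0.135 (SE 0.079). Pcp4, a small calmodulin-binding protein related in function to neurogranin, measured 13.54 and 13.57 in KO, against 13.50 and 13.48 in WT, a difference of 0.065 (SE 0.069).

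Genes of receptor trafficking, phosphorylation and co-agonist supply had a median of 0 over the 15 measured of 16, with 0 called, 3 higher and 0 lower without overlap, against 15.5% and 12.8% of all genes. Grin3b, the other GluN3 subunit, measured 6.98 and 6.89 in KO, against 6.72 and 6.80 in WT, a difference of 0.175 (SE 0.079) with an unadjusted limma p of 0.080 and an adjusted p of 1. Both KO mice lay above both WT mice. Kif17, the motor that carries GluN2B along dendrites, was at -0.095 (SE 0.089) with overlapping groups.

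**Figure D4:**
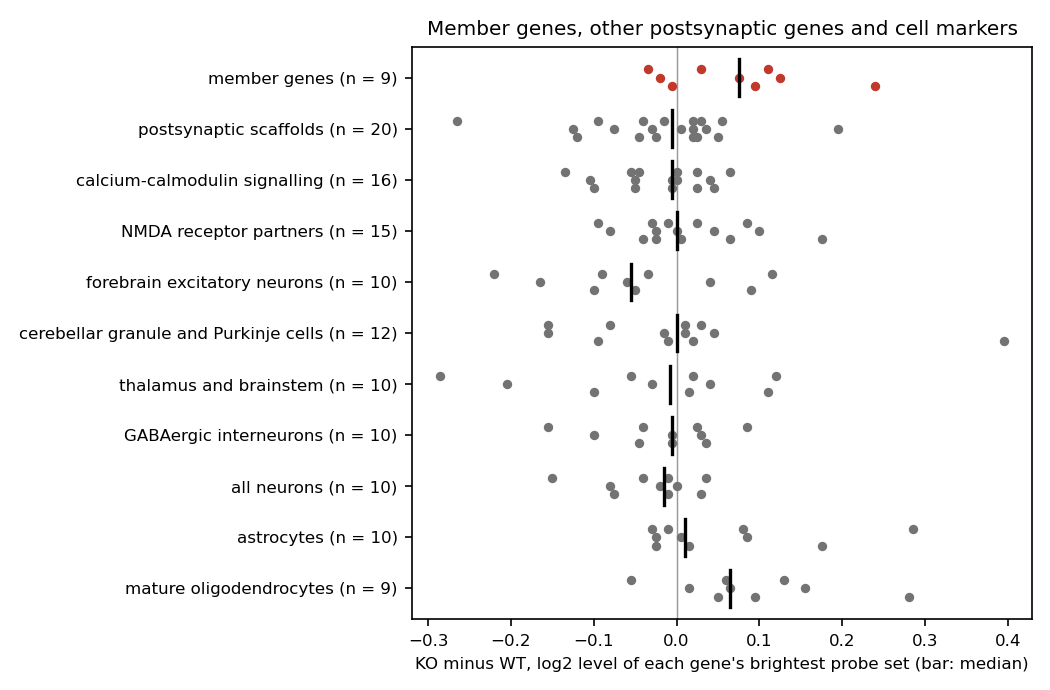
KO minus WT difference in log2 level (x axis) of the brightest probe set of each gene, 1 point a gene, for the 9 measured members in red and for 3 postsynaptic lists and 7 marker lists in grey, with a black bar at each median. The nasal and pituitary lists are left out of the plot, and the medians of the lists shown run from -0.055 for forebrain excitatory neurons to 0.075 for the members.

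The 9 measured member genes by their brightest set had a median of 0.075, against 0.005 for all genes by theirs. The median of all 22 sets, which adds the dimmer sets of Camk2a, Grin2b, Grin2d, Grin3a and Dlg4, was -0.0025. Glial markers beside the members had a median of 0.01 over 10 astrocyte genes and 0.065 over 9 mature oligodendrocyte genes, with 0 called in both. Gfap, the astrocyte filament, was at 0.285 (SE 0.081) and Myrf, the myelin gene regulator, at 0.28 (SE 0.081).

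The gene whose level ran most like that of Grin2a, the member with the widest range over the 4 arrays, was Mettl27. Likeness was the root mean square distance between levels centred on their own mean over the 4 arrays, among 11630 other genes above the median level. The distance was 0.015 for Mettl27, a predicted methyltransferase, 0.058 for Eda, a ligand of the tumour necrosis factor family, and 0.061 for Sinhcaf, a subunit of a histone deacetylase complex, where the median gene was at 0.21. With 4 arrays such closeness is a description of the low second WT value that they share. Mettl27 measured 7.85 and 7.67 in KO, against 7.76 and 7.31 in WT.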

How the data were processed

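The authors deposited 1 log2 level per probe set and array, made with RMA per the submitters' processing notes; the sources used here name no software, version or settings. Values have 2 decimals and no detection calls, and no depth applies to arrays, so the number of arrays limits the precision. Of 45101 rows, 64 control probe sets were left out. The platform annotation named 1 gene for 34945 probe sets, several for 932 and none for 9160, and an update of symbols through the RefSeq table of GRCm38.p6 changed 0. No coordinates are given, since the values carry no build.

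KO minus WT was fitted in limma 3.58.1 (R 4.3.3) with lmFit and eBayes on all probe sets, two-sided, with 2 residual and 2.74 prior degrees of freedom. The fit was tested on simulated data with planted differences larger than that of any member. That test does not show how the fit performs at the sizes seen here. Intervals are 95% limma intervals. The members and lists were chosen with earlier results of these data known, and no set test was run. Named beyond the members are Bcas1, the 3 genes nearest in pattern and genes that check the tissue. The most positive and most negative gene of each list are also named, except for the nasal and pituitary lists, where only the most positive is. Gabra6 and Tbr1 were named after their values were seen. As alternatives, arrays were centred on their medians or quantile-normalized again, dim probe sets were dropped, the variance prior was given an intensity trend and robust estimation, the replicate number was a block, each array was left out, and probe sets were averaged per gene.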

Additional observations from a re-analysis of the deposited data

How the results depend on the processing

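The count of member probe sets called stayed at 0 under all 10 alternatives, and the smallest adjusted limma p of any member set under any of them was 0.573. The 2 calls over the whole array became 1 with dim probe sets left out, 10 with an intensity trend and robust variance, and 0 with any single array left out. The filter on dim sets kept 14 of the 22 members and left out Grin2a, so Grin2a minus Grin2b has no value there. The numbers 1 and 2 of the labels are not stated to pair the mice, and deviations of same-numbered mice correlated at 0.24 over all probe sets and at 0.42 over the 22 members. With the replicate block 0 probe sets were called over the whole array, members included. Each number occurs once in each group, so the block cannot change a difference. The unchanged member differences are therefore no check of stability.

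The median member difference of -0.0025 was 0.03 over gene means and -0.0175 to 0.04 with 1 array left out, and that of the calcium and calmodulin list was -0.033 over gene means. With 1 array left out, the list medians ran from -0.0525 to 0.0125 (scaffolds), from -0.03 to 0.005 (calcium and calmodulin) and from -0.04 to 0.04 (receptor partners), and Grin2a minus Grin2b from -0.12 to 0.41. The cause was not tested. The -0.005 of 2 Grin3a sets, 1436575_at and 1438866_at, was 0.005 for both with median-centred arrays and 0.005 and 0.0025 after repeated quantile normalization.

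Leaving out 1 array changed the sign of several member differences. The ranges were -0.025 to 0.215, -0.095 to 0.155 and -0.115 to 0.095 for Grin2b 1442370_at, 1457003_at and 1431700_at, and -0.02 to 0.24 for Grin2d 1442328_at. They were -0.04 to 0.03 and -0.09 to 0.08 for Grin3a 1436575_at and 1438866_at. For Dlg4 they were -0.06 to 0.02 on 1419580_at and -0.295 to 0.065 on 1460261_at, and for Shank3 -0.01 to 0.07. For Camk2a they were -0.165 to 0.075 on 1442707_at and -0.03 to 0.26 on 1441734_at. With 2 mice per group a difference of the size seen here could not be told from the spread within a group.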
